A study of Homo sapiens with 48 samples.

Results

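The 10 enzyme genes described here encode proteins that build serine, asparagine and proline or pass the serine carbon through mitochondrial folate metabolism. They were listed by name: PHGDH, PSAT1 and PSPH of serine synthesis, SHMT2, MTHFD2, MTHFD1L and ALDH1L2 of mitochondrial one-carbon metabolism, ASNS of asparagine synthesis, and PYCR1 and ALDH18A1 of proline synthesis. All 10 were found among the 11145 genes with ribosome-protected fragments (RPFs) and among the 11947 genes with total cytoplasmic RNA, and thus among the 10836 genes measured in both. SW480, a human APC-mutated colorectal adenocarcinoma line, carried 1 of 3 doxycycline-inducible shRNAs, a non-targeting control (shCTRL), shEIF2B1 against the eIF2Bα subunit or shEIF2B4 against the eIF2Bδ subunit, and was kept for 5 days with DMSO (-DOX) or with 1 µg/ml doxycycline (+DOX). Each of the 6 groups was grown in 4 separate weeks, and each of the 24 lysates gave an RPF library and a total RNA library (48 in all). The lines were selected pools of lentivirally transduced cells, and -DOX cells carried the same uninduced construct as their +DOX counterpart, so that a line and its construct cannot be told apart. The response of a gene was taken as its change from -DOX to +DOX with a knockdown shRNA minus its change in shCTRL, within weeks.

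eIF2B is the exchange factor that reloads eIF2 with GTP for the next round of translation initiation. When active eIF2 runs short, most initiation slows while the ATF4 mRNA, which carries short upstream reading frames, is translated more, and ATF4 then binds composite C/EBP-ATF response elements (CAREs) in genes for amino acid synthesis. The enzymes described here are commonly listed among ATF4 targets, and they are also known to be high in growing tumor cells, where serine is the main source of carbon units for nucleotides. PHGDH oxidizes a glycolytic intermediate, PSAT1 adds the amino group and PSPH removes the phosphate to leave serine. SHMT2 splits serine into glycine and a folate-bound carbon in the mitochondrion, MTHFD2 oxidizes that carbon, MTHFD1L releases it as formate, and ALDH1L2 instead burns it to CO2 with a gain of NADPH. ASNS moves nitrogen from glutamine to aspartate, ALDH18A1 makes the first proline precursor from glutamate, and PYCR1 reduces the last one to proline.

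On GRCh38 (GENCODE v29), the serine genes lie apart from one another, PHGDH at chr1:119648411-119744226, PSAT1 at chr9:78297143-78330093 and PSPH at chr7:56011051-56051604 (minus strand). Of the mitochondrial folate genes, SHMT2 lies at chr12:57229327-57234935, ALDH1L2 at chr12:105019784-105084577 (minus strand), MTHFD2 at chr2:74198562-74217565 and MTHFD1L at chr6:150865549-151101887. ASNS lies at chr7:97852118-97872542 (minus strand), PYCR1 at chr17:81932384-81942412 (minus strand) and ALDH18A1 at chr10:95605929-95656706 (minus strand), and RPF values refer to the coding exons of 1 transcript of each gene.

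The ASNS promoter is shown because ASNS had the largest total RNA response of the 10 genes upon shEIF2B4 and because its CARE is a textbook element. The 100 bases before the first RefSeq start of ASNS (GRCh38.p14, chr7:97872409-97872508, minus strand, promoter and 5′ flank) follow with the bases that match TGATGNAA in capitals.
ASNS: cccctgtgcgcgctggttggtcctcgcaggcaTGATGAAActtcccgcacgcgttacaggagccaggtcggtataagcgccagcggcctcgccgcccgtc
The first matching base lay at -68 from the start. Promoter windows, from 250 bases before to 50 bases after a start, were listed for 6 of the 10 genes (PHGDH, PSAT1, MTHFD2, MTHFD1L, ASNS and ALDH18A1), and those of PSPH, SHMT2, ALDH1L2 and PYCR1 were not used here. TGATGNAA, searched on both strands (TTNCATCA on the other), was present in 4 of the 10 windows of these genes, all of ASNS or MTHFD1L, and thus in 2 of the 6 genes. It was in 3.62% of all 35116 listed windows and in 1.94% of the 13179 windows of genes with RPFs. Overlapping MTHFD1L windows held the same match, so that the count of windows cannot be set against these shares. The MTHFD1L match, shown to set it beside that of ASNS, began at -129 from its first listed start (window chr6:150866346-150866375, plus strand).
MTHFD1L: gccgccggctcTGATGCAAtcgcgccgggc
The E-box CACGTG, a palindrome that MYC and several other factors bind, was found in 4 of the 10 windows, all of MTHFD1L or ALDH18A1, and thus in 2 of the 6 genes. It was in 7.26% of all windows and 9.56% of those of genes with RPFs. Here too overlapping MTHFD1L windows held the same match, and the count of windows cannot be set against these shares. ALDH18A1 carried it at -136 (window chr10:95656830-95656859, minus strand, capitals on the E-box).
ALDH18A1: gggctggcccgcCACGTGgagcgctggctt
These matches are descriptions of the sequence, and no binding was measured.

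The targeted mRNAs were checked first. EIF2B1 RPFs fell by 0.53 on the log2 scale upon shEIF2B1 (limma adjusted p = 0.0109) and its total RNA fell by 0.67 (adjusted p = 0.0263). EIF2B4 total RNA fell by 0.49 upon shEIF2B4 (adjusted p = 0.0634), whereas the change of its RPFs was -0.48 and missed the threshold (adjusted p = 0.236). Both targets were already lower without doxycycline, EIF2B1 RPFs by 0.45 in the shEIF2B1 line (adjusted p = 0.000194) and EIF2B4 RPFs by 0.42 in the shEIF2B4 line (adjusted p = 0.0824), each against uninduced shCTRL. Of 10 epithelial markers, 6 were present in both tables (EPCAM, KRT8, KRT18, KRT19, CDH1 and CDX2), while KRT20, CDH17, VIL1 and LGALS4 were absent. Of 14 markers of fibroblasts, endothelium and leukocytes, CD68 alone was present. CDH1 was low, at a mean log2 total RNA value of 4.35, below CD68 at 4.961, where the median gene stood at 7.89. The deposited values are regularized log2 values without counts, so that the depth of each library is unknown, no floor or counting interval can be given, and folds of genes with few reads are shrunken. Median values of RPF libraries ranged from 6.977 to 7.063 in shCTRL, from 6.999 to 7.122 in shEIF2B1 and from 6.842 to 6.966 in shEIF2B4.

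Within uninduced shCTRL cells the 10 genes spanned a wide range of ribosome occupancy. Per kilobase of coding sequence, on a log2 RPF level scale, SHMT2 stood at 10.81 ± 0.22 (SD, n = 4), PSAT1 at 10.22 ± 0.24, PYCR1 at 9.56 ± 0.26, MTHFD2 at 9.20 ± 0.25, PHGDH at 8.91 ± 0.14, PSPH at 8.82 ± 0.26, ASNS at 8.33 ± 0.41, ALDH18A1 at 8.02 ± 0.16 and ALDH1L2 at 2.79 ± 0.31. SHMT2 and PSAT1 each lay more than their SDs above the next gene, while from PYCR1 down to ALDH18A1 each gene lay within the sum of the SDs of its neighbor in the order. ALDH1L2, which competes for the carbon that MTHFD1L would release as formate, was far below every other member. MTHFD1L was left out of this order since the transcript counted in the files is a short isoform.

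ASNS had the largest RPF estimate upon shEIF2B4 and, after ALDH1L2, upon shEIF2B1. Its log2 RPF values in weeks 1 to 4 were 9.43, 9.31, 8.81 and 8.55 in shCTRL -DOX and 9.78, 9.94, 10.02 and 9.77 in shCTRL +DOX. In shEIF2B1 cells they were 9.26, 9.90, 9.39 and 9.06 without and 10.82, 11.05, 11.39 and 11.10 with doxycycline. In shEIF2B4 cells they were 8.92, 9.56, 8.76 and 8.45 without and 10.46, 10.86, 10.66 and 10.92 with doxycycline. In each of the 3 lines every +DOX library was above every -DOX library, and the induced knockdown libraries were also above all induced shCTRL libraries. The control line itself thus rose by 0.85 ± 0.14 (SE) on the log2 scale in RPFs (adjusted p = 0.0217) and by 0.64 ± 0.09 in total RNA (adjusted p = 0.0144). ASNS and ALDH1L2 were the 2 members called in shCTRL in either assay, where 5.23% of all genes were called higher in RPFs (9.85% in either direction) and 2.27% in total RNA (4.44%). Beyond this change, the RPF response of ASNS was 0.84 ± 0.21 upon shEIF2B1 (1.78-fold, 95% interval 0.39 to 1.28, adjusted p = 0.0122) and 0.95 ± 0.24 upon shEIF2B4 (1.93-fold, 95% interval 0.44 to 1.46, adjusted p = 0.0621). Whether a change reflects RNA per cell or the share of cells that express a gene cannot be told apart in these bulk lysates.

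**Figure D1:**
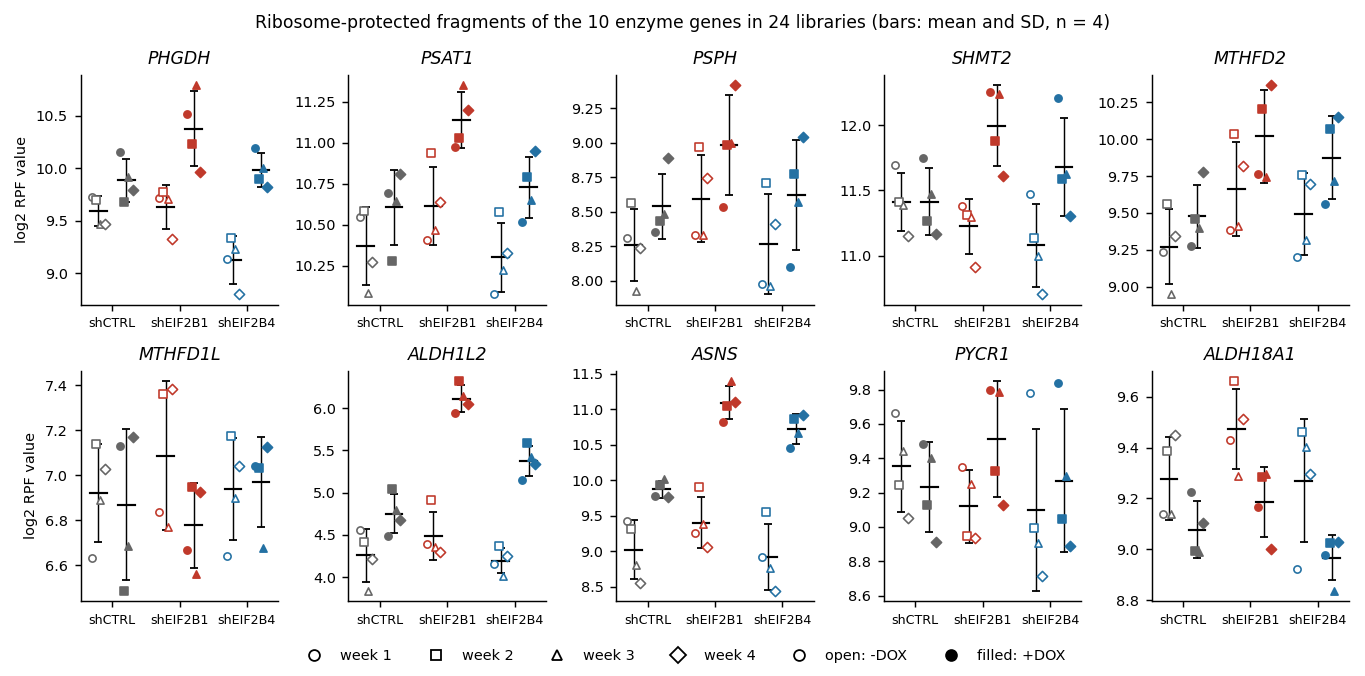
Log2 RPF value of each of the 10 enzyme genes (y axis, own scale per panel) in the 24 RPF libraries, by line (x axis), with open symbols for -DOX, filled symbols for +DOX, 1 symbol shape per week, and bars for mean and SD (n = 4). ASNS and ALDH1L2 stood highest in the induced knockdown lines, while the mean of ALDH18A1 was lower with than without doxycycline in each line.

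Total RNA of ASNS moved in the same direction. In shCTRL the log2 values were 10.23, 10.07, 9.55 and 9.47 without and 10.57, 10.63, 10.39 and 10.31 with doxycycline. In shEIF2B1 cells they went from 10.18, 10.45, 10.12 and 9.63 to 11.54, 11.28, 11.82 and 11.64, and in shEIF2B4 cells from 10.02, 10.06, 9.28 and 9.24 to 11.56, 11.66, 11.61 and 11.49. The induced libraries of both knockdown lines overlapped each other and lay above all others. The total RNA response was 0.83 ± 0.21 upon shEIF2B1 (1.78-fold, adjusted p = 0.0459) and 1.29 ± 0.16 upon shEIF2B4 (2.44-fold, 95% interval 0.95 to 1.62, adjusted p = 6.39e-05), the latter ranking 19 from the top of 11947 genes. Upon shEIF2B1 the total RNA call of ASNS was lost when replicate 1, 3 or 4 was left out (adjusted p = 0.286, 0.109 and 0.254), whereas upon shEIF2B4 it was kept in all 13 alternatives.

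ALDH1L2 had the largest RPF response of the set upon shEIF2B1, from a low level. Its log2 RPF values were 4.56, 4.41, 3.84 and 4.22 in shCTRL -DOX and 4.49, 5.05, 4.79 and 4.68 in shCTRL +DOX, which overlapped. They went from 4.39, 4.91, 4.35 and 4.30 to 5.94, 6.32, 6.14 and 6.05 in shEIF2B1 cells, and from 4.15, 4.36, 4.01 and 4.25 to 5.15, 5.59, 5.43 and 5.34 in shEIF2B4 cells. Both knockdown lines were separated by induction, and induced shEIF2B1 libraries were all above induced shEIF2B4 libraries. The response was 1.13 ± 0.19 upon shEIF2B1 (2.19-fold, 95% interval 0.74 to 1.52, adjusted p = 0.000748) and 0.69 ± 0.19 upon shEIF2B4 (1.61-fold, adjusted p = 0.0905). In total RNA it was 0.95 ± 0.14 upon shEIF2B1 (1.93-fold, adjusted p = 0.000834), and 0.48 ± 0.15 upon shEIF2B4, which missed the threshold (adjusted p = 0.107) but passed when the change within each week was the value tested (0.48, adjusted p = 0.0311) and without replicate 1 (0.55, adjusted p = 0.08). ALDH1L2 also rose in shCTRL upon doxycycline, by 0.49 ± 0.15 in RPFs (adjusted p = 0.0811) and 0.47 ± 0.09 in total RNA (adjusted p = 0.0477). Its shEIF2B1 response was called in all 12 alternatives in both assays.

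SHMT2, the entry point of mitochondrial one-carbon metabolism, responded in RPFs by a like amount in each week. Log2 RPF values in shCTRL were 11.69, 11.41, 11.39 and 11.15 without and 11.75, 11.27, 11.47 and 11.17 with doxycycline, a change of 0.00 ± 0.09. In shEIF2B1 cells they went from 11.38, 11.31, 11.30 and 10.91 to 12.26, 11.88, 12.24 and 11.61, and in shEIF2B4 cells from 11.48, 11.14, 11.00 and 10.70 to 12.21, 11.59, 11.62 and 11.30. The groups were separated in shEIF2B1 cells, and in shEIF2B4 cells they overlapped across weeks while the value rose within every week. The RPF response was 0.77 ± 0.13 upon shEIF2B1 (1.71-fold, adjusted p = 0.00066), with weekly values from 0.68 to 0.86. Upon shEIF2B4 it was 0.60 ± 0.14 (1.51-fold, adjusted p = 0.0336), with weekly values from 0.54 to 0.68. Total RNA rose as well, by 0.68 ± 0.12 upon shEIF2B1 (adjusted p = 0.0037) and by 0.56 ± 0.12 upon shEIF2B4 (adjusted p = 0.01), the latter not called without replicate 2 or 4 (adjusted p = 0.102 and 0.148). Weekly total RNA responses were more spread, from 0.32 to 0.90 upon shEIF2B1 and from 0.18 to 0.73 upon shEIF2B4. In contrast to its RPFs, SHMT2 total RNA was 0.29 ± 0.09 higher in induced than in uninduced shCTRL cells, below the threshold (adjusted p = 0.121).

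MTHFD2 total RNA was 11.92, 11.84, 11.46 and 11.79 in shCTRL -DOX and 12.09, 11.78, 11.93 and 12.12 in shCTRL +DOX. It went from 11.82, 11.86, 11.46 and 11.75 to 12.52, 12.42, 12.48 and 12.47 in shEIF2B4 cells, with no overlap, a response of 0.52 ± 0.12 (1.43-fold, adjusted p = 0.0246) that was not called without replicate 4 (adjusted p = 0.132). Upon shEIF2B1 the MTHFD2 total RNA response was 0.31 ± 0.15 (adjusted p = 0.34). Its RPF responses were 0.15 ± 0.14 upon shEIF2B1 (adjusted p = 0.478) and 0.18 ± 0.15 upon shEIF2B4 (adjusted p = 0.589). MTHFD1L, which releases formate, had RPF responses of -0.26 ± 0.20 and 0.08 ± 0.21 (adjusted p = 0.384 and 0.884) and total RNA responses of 0.16 ± 0.10 and 0.19 ± 0.10 upon shEIF2B1 and shEIF2B4 (adjusted p = 0.49 and 0.335). Its values refer to the short isoform that the files list.

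**Figure D2:**
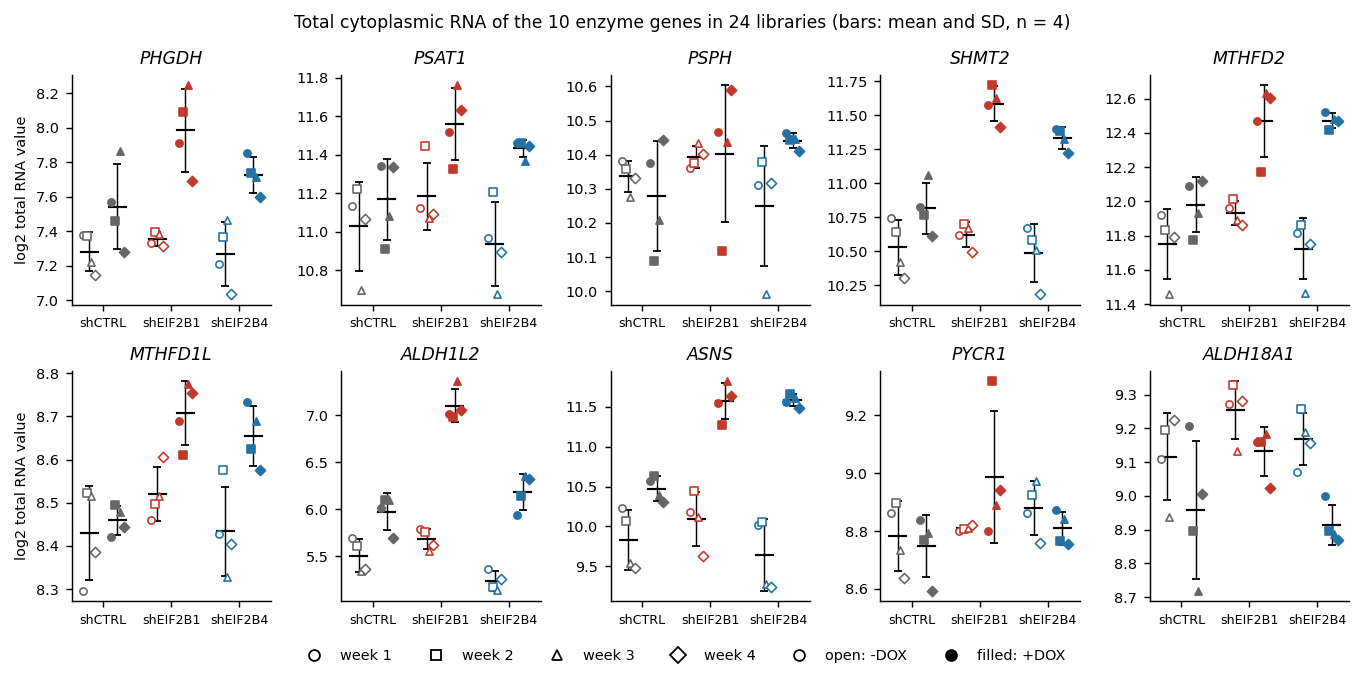
Log2 total cytoplasmic RNA value of each of the 10 enzyme genes (y axis, own scale per panel) in the 24 total RNA libraries, by line (x axis), drawn with the same symbols as the RPF values and with mean and SD (n = 4). MTHFD2, SHMT2 and ASNS of the induced shEIF2B4 cells lay close together and above the uninduced libraries.

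In the serine branch, PHGDH was the only member with a called RPF response, and its differences from PSAT1 and PSPH were not tested. Its log2 RPF values were 9.73, 9.70, 9.47 and 9.46 in shCTRL -DOX and 10.15, 9.67, 9.92 and 9.80 in shCTRL +DOX. They went from 9.72, 9.77, 9.71 and 9.32 to 10.52, 10.23, 10.80 and 9.97 in shEIF2B1 cells, and from 9.13, 9.33, 9.23 and 8.80 to 10.20, 9.90, 10.01 and 9.82 in shEIF2B4 cells. Induced and uninduced libraries of both knockdown lines did not overlap, and the shEIF2B4 line started from lower values than the other lines. The RPF response was 0.45 ± 0.16 upon shEIF2B1 (1.37-fold, adjusted p = 0.0599) and 0.56 ± 0.16 upon shEIF2B4 (1.48-fold, adjusted p = 0.0878). Without replicate 1, 3 or 4 the shEIF2B1 call was lost (adjusted p = 0.142, 0.126 and 0.119). PHGDH total RNA responses were 0.37 ± 0.13 and 0.19 ± 0.12, below the threshold (adjusted p = 0.187 and 0.451).

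PSAT1, the aminotransferase of the same branch, had RPF group means of 10.62 ± 0.24 and 11.14 ± 0.17 (SD, n = 4) in uninduced and induced shEIF2B1 cells, against 10.37 ± 0.24 and 10.61 ± 0.23 in shCTRL. Its RPF responses were 0.29 ± 0.19 and 0.19 ± 0.20 upon shEIF2B1 and shEIF2B4 (adjusted p = 0.305 and 0.672), and its total RNA responses were 0.24 ± 0.18 and 0.36 ± 0.14 (adjusted p = 0.569 and 0.194). PSPH, the last enzyme of the branch, had RPF responses of 0.11 ± 0.19 and 0.07 ± 0.21 (adjusted p = 0.719 and 0.896) and total RNA responses of 0.07 ± 0.12 and 0.25 ± 0.11 (adjusted p = 0.842 and 0.256). Neither gene passed the test in any response, although PSAT1 total RNA upon shEIF2B4 passed when the change within each week was the value tested (0.36, adjusted p = 0.0518), and their intervals still allow a PSAT1 RPF response of up to 0.69 upon shEIF2B1.

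The proline enzymes differed from each other in their values. PYCR1 RPFs were 9.67, 9.25, 9.44 and 9.05 in shCTRL -DOX and 9.48, 9.13, 9.40 and 8.91 in shCTRL +DOX. They went from 9.35, 8.95, 9.25 and 8.93 to 9.80, 9.33, 9.79 and 9.13 in shEIF2B1 cells, and from 9.78, 8.997, 8.90 and 8.72 to 9.84, 9.05, 9.30 and 8.89 in shEIF2B4 cells. Groups overlapped in every line, but within each week PYCR1 was higher with doxycycline in both knockdown lines and lower in shCTRL. The RPF response was 0.51 ± 0.11 upon shEIF2B1 (1.43-fold, adjusted p = 0.00555) and 0.29 ± 0.16 upon shEIF2B4 (adjusted p = 0.381). PYCR1 total RNA responses were 0.21 ± 0.13 and -0.04 ± 0.09 (adjusted p = 0.45 and 0.878). ALDH18A1, in contrast, had RPF responses of -0.09 ± 0.14 and -0.10 ± 0.16 (adjusted p = 0.701 and 0.793) and total RNA responses of 0.04 ± 0.12 and -0.10 ± 0.12 (adjusted p = 0.928 and 0.732).

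Across the set, 5 of the 10 genes passed the test with higher RPFs upon shEIF2B1 (PHGDH, SHMT2, ASNS, ALDH1L2 and PYCR1) and none with lower RPFs, where 12% of the 11145 genes were called higher and 15.3% lower (27.3% in either direction). Upon shEIF2B4, 4 genes passed (PHGDH, SHMT2, ASNS and ALDH1L2), all higher, against 1.88% of all genes called higher and 0.87% lower (2.75% in either direction). The median RPF response of the 10 genes was 0.37 and 0.24, beside -0.01 and -0.02 over all genes. Shifts were also present without an induced knockdown. Doxycycline alone moved the set in shCTRL by a median of 0.22 for RPFs (0.01 over all genes) and 0.18 for total RNA (-0.003). Uninduced shEIF2B1 cells differed from uninduced shCTRL by medians of 0.21 (RPFs) and 0.12 (total RNA), against 0.002 and -0.0009 over all genes. For uninduced shEIF2B4 cells these medians were -0.07 and -0.03, against -0.13 and -0.04. No test compared these shifts. In total RNA, 3 genes were called higher upon shEIF2B1 (SHMT2, ASNS and ALDH1L2, background 2.34% higher, 3.47% in either direction) and 3 upon shEIF2B4 (SHMT2, MTHFD2 and ASNS, background 3.78% higher, 5.4% in either direction), with medians of 0.27 and 0.30. No member was called in RPFs upon shEIF2B4 without replicate 2, 3 or 4, where the genes called overall went from 307 to 77, 66 and 43, while without replicate 1 the count of members was still 4 and that of all genes was 1615. Without the week as a block, the RPF counts were 1 upon shEIF2B1 and 0 upon shEIF2B4, and 50 and 36 genes were called in all.

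**Figure D3:**
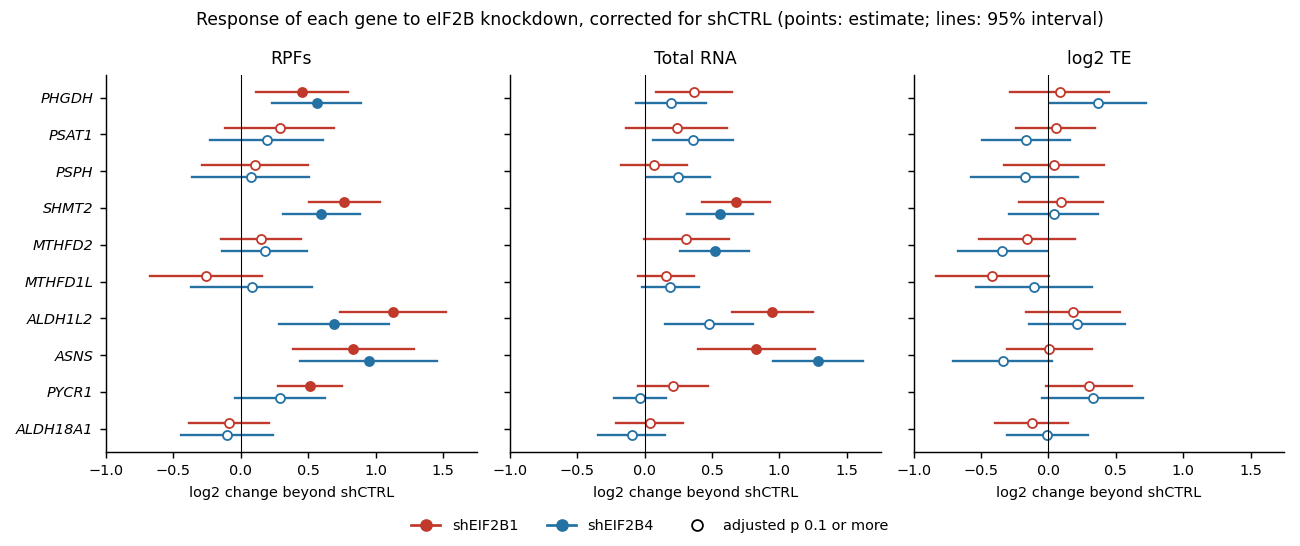
Responses of the 10 genes (rows) to shEIF2B1 and shEIF2B4, as log2 change beyond shCTRL (x axis) in RPFs, total RNA and log2 TE, with points for the estimate, lines for the 95% interval and filled points for adjusted p under 0.1. RPF responses of ASNS, ALDH1L2, SHMT2 and PHGDH passed in both knockdowns, and no log2 TE response passed.

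Separation of libraries, on the same regularized log2 values, gave a view without the limma fit. It holds no correction for shCTRL and no pairing by week, so that a separated gene need not have a called response. Upon induction, 5 of the 10 genes had non-overlapping, higher RPF libraries in shEIF2B1 cells (background 8.2%) and 3 in shEIF2B4 cells (4.59%), against 1 in shCTRL (2.27%), which was ASNS. In total RNA, 6 genes were separate and higher in shEIF2B1 cells (13.8%), 8 in shEIF2B4 cells (14.6%) and 1 in shCTRL (3.78%). ALDH18A1 was separate and lower in shEIF2B4 total RNA, where 12% of all genes were, with 9.07, 9.26, 9.19 and 9.16 before and 9.001, 8.90, 8.89 and 8.87 after induction. Its total RNA was also lower in 3 of 4 weeks in shCTRL, and the response beyond shCTRL did not pass the test.

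The knockdowns were next compared directly, as the difference of their responses, in which the shared shCTRL libraries cancel. No member passed in RPFs, total RNA or log2 TE, where 0.00897%, 0.1% and 0% of all genes were called. ALDH1L2 had the largest RPF difference, 0.44 higher upon shEIF2B1 than upon shEIF2B4 (95% interval 0.07 to 0.81, adjusted p = 0.746), and in total RNA it was 0.47 higher (95% interval 0.15 to 0.79, adjusted p = 0.264). ASNS went the other way in total RNA, with a difference of -0.46 (95% interval -0.90 to -0.02, adjusted p = 0.373). For SHMT2 RPFs the difference was 0.17 (95% interval -0.11 to 0.45), and for PHGDH RPFs it was -0.11 (95% interval -0.45 to 0.23), so that unequal responses within these limits remain possible.

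Translation efficiency (log2 TE), the log2 RPF value minus the log2 total RNA value of the same lysate, tells whether ribosome occupancy moved beyond RNA abundance. Of the 10 genes, 0 passed the limma test upon shEIF2B1 and 0 upon shEIF2B4, against 7.1% and 0.0923% of all genes, and 0 and 2 members had an unadjusted p under 0.05, as had 2193 and 1848 of all 10836 genes. ASNS had a log2 TE response of 0.01 (95% interval -0.31 to 0.32) upon shEIF2B1 and -0.34 (95% interval -0.71 to 0.03, adjusted p = 0.316) upon shEIF2B4. SHMT2 gave 0.09 (95% interval -0.22 to 0.40) and 0.04 (95% interval -0.29 to 0.37). The RPF increases of ASNS and SHMT2 came with total RNA increases of similar size, apart from ASNS upon shEIF2B4, where total RNA had the larger estimate. The 2 members under that unadjusted p were PHGDH and MTHFD2, at 0.37 and -0.34 upon shEIF2B4 (adjusted p = 0.286 for each), a count near that over all genes. MTHFD1L was at -0.42 upon shEIF2B1 (adjusted p = 0.25) and PYCR1 at 0.30 (adjusted p = 0.278), and both passed once replicate 2 was left out (-0.59 and 0.45, adjusted p = 0.0545 and 0.0904).

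ATF4 and DDIT3, the latter an ATF4-dependent stress factor, were read in the same libraries. Beyond shCTRL, ATF4 RPFs rose by 1.02 ± 0.15 upon shEIF2B1 (adjusted p = 0.000223) and by 0.76 ± 0.20 upon shEIF2B4 (adjusted p = 0.069), while its total RNA responses were 0.19 ± 0.11 and 0.09 ± 0.09 (adjusted p = 0.451 and 0.678). In shCTRL itself, ATF4 RPFs were 0.32 ± 0.11 higher with doxycycline, below the threshold (adjusted p = 0.121). Its induced shCTRL RPF libraries all lay above the uninduced ones, as for 2.27% of all genes. The ATF4 log2 TE response was 0.83 upon shEIF2B1 (adjusted p = 0.0323) and 0.67 upon shEIF2B4 (adjusted p = 0.159). DDIT3 rose in both assays, with RPF responses of 1.49 and 1.73 and total RNA responses of 0.91 and 1.16.

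**Figure D4:**
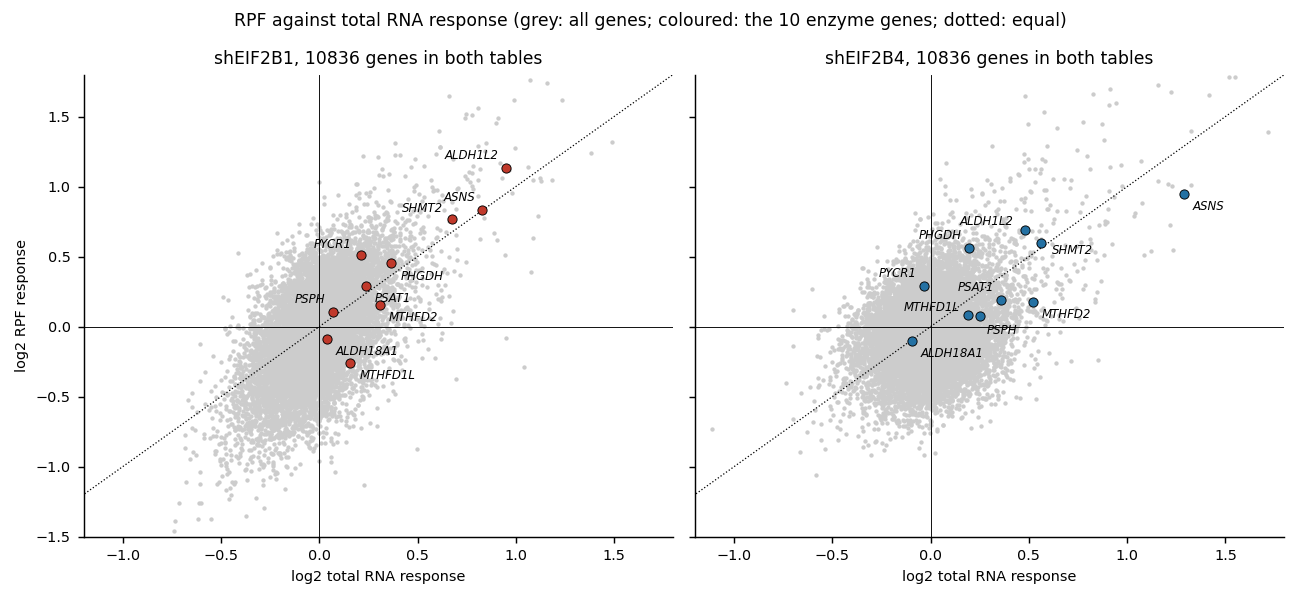
RPF response (y axis) against total RNA response (x axis), both as log2 change beyond shCTRL, for 10836 genes (gray) and the 10 enzyme genes (labelled), with 1 panel per knockdown and 13 genes outside the axes in each. ASNS, ALDH1L2 and SHMT2 lay at the upper right, near the line of equal change, upon shEIF2B1.

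RPF and log2 TE responses moved across all genes with the base composition of the coding sequence, and the 10 genes are set against this here. The share of G or C at the third codon position (GC3) could be given for 10848 of 11145 genes (97.3%), with a median of 59.7%. It was 79.2% for PYCR1, 69.2% for PHGDH, 68.3% for SHMT2, 58.5% for MTHFD1L, 54.3% for ALDH18A1, 51.1% for PSAT1, 44.9% for PSPH, 44.3% for ALDH1L2, 41.7% for ASNS and 41.4% for MTHFD2, so that 3 of the 10 lay above the median. From the lowest to the highest GC3 quintile the median RPF response rose from -0.35 to 0.24 upon shEIF2B1 and from -0.25 to 0.17 upon shEIF2B4, whereas median total RNA responses stayed between -0.07 and 0.08. ASNS and ALDH1L2 belonged to the second quintile, where the median RPF response was -0.17 upon shEIF2B1 and -0.13 upon shEIF2B4, and they went against it. PHGDH, SHMT2 and PYCR1 belonged to quintiles in which the median RPF response was above 0.

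When the GC3 trend of each library was removed, an alternative chosen after seeing the data, the RPF responses upon shEIF2B1 were 1.07 for ASNS, 1.33 for ALDH1L2 and 0.62 for SHMT2, all still called (adjusted p = 0.00335, 0.000157 and 0.00899). PHGDH and PYCR1 were then at 0.29 and 0.26 and no longer passed (adjusted p = 0.325 and 0.165), while MTHFD2 was at 0.39 and passed (adjusted p = 0.0641). PSAT1 and PSPH were at 0.38 and 0.29 and were not called (adjusted p = 0.236 and 0.321). Upon shEIF2B4, ASNS, ALDH1L2 and SHMT2 stayed called at 1.11, 0.83 and 0.50 (adjusted p = 0.0114, 0.0326 and 0.0601), and PHGDH did not at 0.45 (adjusted p = 0.236). Genes called upon shEIF2B1 in all went from 3038 to 1129. Total RNA calls of the 10 genes were the same with and without the trend.

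Before induction the lines already differed. In RPFs of uninduced shEIF2B1 cells against uninduced shCTRL, 7 of the 10 genes passed, 5 higher and 2 lower, beside 54.1% of all genes (29% higher and 25.1% lower). PSPH was higher by 0.33 (adjusted p = 0.00439), MTHFD2 by 0.39 (adjusted p = 0.000622), ASNS by 0.38 (adjusted p = 0.0054), PSAT1 by 0.24 (adjusted p = 0.027) and ALDH18A1 by 0.20 (adjusted p = 0.0402), while SHMT2 and PYCR1 were at -0.19 and -0.23 (adjusted p = 0.0484 and 0.0161). With the GC3 trend removed 1 member passed, and 1917 genes were called in place of 6030. In uninduced shEIF2B4 cells PHGDH was at -0.47 (adjusted p = 0.0618) and SHMT2 at -0.33 (adjusted p = 0.088), where 12.4% of all genes were called lower (13.9% in either direction) and the median over all genes was -0.13. Once each library was centered on its median, neither passed. In total RNA 0 members passed the limma test in either line (background 1.4% and 2.32%), with 5 and 2 members at an unadjusted p under 0.05, beside 1569 and 1890 of all 11947 genes. The induced PHGDH RPF mean of shEIF2B4 cells, 9.98 ± 0.16, lay within the SDs of the 9.89 ± 0.20 of induced shCTRL cells. Per kilobase, SHMT2 in induced shEIF2B4 cells (11.08 ± 0.38 against 10.82 ± 0.26) also lay within the sum of the SDs. So did PYCR1 (9.72 ± 0.34 against 9.44 ± 0.26) and PHGDH (9.70 ± 0.36 against 9.21 ± 0.20) in induced shEIF2B1 cells. ASNS and ALDH1L2 lay further apart in both knockdown lines, as did SHMT2 in shEIF2B1 cells.

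Paralogs of the members in other compartments or pathways were read beside them. MTHFD1, the cytosolic folate enzyme, went from RPF values of 9.48, 10.22, 9.55 and 10.12 to 9.06, 9.22, 9.26 and 9.24 upon induction of shEIF2B1, a response of -0.58 ± 0.19 (adjusted p = 0.0435), and it was at -0.31 ± 0.23 upon shEIF2B4 (adjusted p = 0.544). Its weekly responses upon shEIF2B1 were -0.86, -0.57, -0.01 and -0.86. MTHFD1 RPFs of uninduced shEIF2B1 cells were already 0.33 above uninduced shCTRL (limma adjusted p = 0.00422), where 29% of all genes were called higher. ALDH1L1, the cytosolic counterpart of ALDH1L2, had an RPF response of 0.55 ± 0.20 upon shEIF2B1 (adjusted p = 0.0666) and 0.43 ± 0.21 upon shEIF2B4 (adjusted p = 0.322), at log2 values from 2.98 to 5.11. SHMT1, the cytosolic counterpart of SHMT2, was at 0.05 ± 0.13 and -0.10 ± 0.14, and PYCR3, MTHFD2L and ASNSD1 lay between -0.27 and 0.18, with no call for any of these 4. The differences between each member and its paralog were not tested.

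A wider list of 57 genes of the same and neighboring pathways held 44 with RPF values. Upon shEIF2B1, 6 of these rose in RPFs: SDSL and GCAT, which degrade serine or threonine, ALDH1L1, CTH of transsulfuration, ARG2 and PEPD, where 12% of all genes were called higher. Another 8 fell, among them DLD and SFXN1 of the serine and glycine group, MTHFD1, MAT2B and PAICS of the folate and methyl group, and GLUD1, glutamate dehydrogenase, where 15.3% of all genes were called lower, so that both counts lay near the background. SDSL rose by 0.80 ± 0.16 (adjusted p = 0.00354) and MAT2B, a methionine adenosyltransferase subunit, fell by 0.60 ± 0.12 (adjusted p = 0.00368). The median of the wider list was -0.05, against 0.37 for the 10 members. Members and lists were chosen with earlier results of these data known, so that this contrast is a description and not a test. Upon shEIF2B4, SDSL (0.82, adjusted p = 0.0246) and PEPD (0.50, adjusted p = 0.093) rose and none fell (background 1.88% higher and 0.87% lower).

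In total RNA, 46 genes of the wider list were measured. DMGDH, a mitochondrial enzyme that takes a carbon from dimethylglycine, rose by 1.14 ± 0.13 upon shEIF2B1 (adjusted p = 3.14e-05) and by 0.98 ± 0.11 upon shEIF2B4 (adjusted p = 1.65e-05). ARG2, mitochondrial arginase, rose by 0.62 and 0.73 (adjusted p = 0.00815 and 5.94e-05). CBS rose upon shEIF2B1 (0.96, adjusted p = 0.0914), and CTH and GOT1 rose upon shEIF2B4 (0.45 and 0.43, adjusted p = 0.0738 and 0.0988), so that 3 and 4 of 46 genes were called higher (background 2.34% and 3.78%) and none lower (1.13% and 1.62%). In log2 TE, 5 of 43 genes were called upon shEIF2B1, SDSL and GCAT higher (0.70 and 0.54) and 3 lower, among them DLD and GLUD1 (-0.52 and -0.54), against 7.1% of all genes. Upon shEIF2B4 the limma test called 0 of the 43, against 0.0923%.

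The members did not all vary together. With week means removed, Pearson correlations of RPF values over the 24 libraries ranged from -0.47 (ASNS with ALDH18A1) to 0.95 (ASNS with ALDH1L2) across the 45 pairs, with a median of 0.59. PSAT1 followed the mean of the other 9 most closely (0.95), then PHGDH (0.89), ASNS (0.86), SHMT2 (0.85), PSPH (0.85), ALDH1L2 (0.84) and MTHFD2 (0.80), while PYCR1 (0.43), MTHFD1L (-0.13) and ALDH18A1 (-0.23) stood apart. The 5 genes whose RPF pattern was most like the mean of the members over these libraries were KDM4A (0.93), GARS1 (0.93), CTH (0.93), IARS1 (0.92) and CARS1 (0.92), of which GARS1, IARS1 and CARS1 encode aminoacyl-tRNA synthetases. These correlations share the line and treatment groups and the library composition, and are given as descriptions.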

How the data were processed

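Ribosome-protected fragments and total cytoplasmic RNA of 24 SW480 lysates were sequenced. Per the labels and the study's methods, reads of both assays were trimmed (cutadapt 1.18) and deduplicated. Total RNA was aligned with Bowtie2 to GENCODE v38 protein-coding transcripts and quantified with RSEM. RPF reads that matched rRNA, tRNA or mitochondrial RNA were removed. The remaining RPFs were counted on coding sequences of the most expressed transcript per gene, and SAMtools 1.9 and R 4.3.1 were used. The deposited values are regularized log2 values that the authors made with DESeq2, separately for RPFs and total RNA, with no counts; replicate 3 joined 2 sequencing runs.

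limma 3.58.1 in R 4.3.3 (lmFit, eBayes with a mean-variance trend, two-sided) was fitted to all genes of a table with week as a block and shRNA, DOX and their product as terms, with Benjamini-Hochberg adjustment and calls at adjusted p under 0.1. Log2 TE was log2 RPF minus log2 total RNA. The study's methods place the 4 repeats in separate weeks, and libraries with the same replicate number were taken to share a week. With group means removed, same-numbered libraries of different groups correlated over 0.1 in 52 of 60 pairs for RPFs, 37 of 60 for total RNA and 55 of 60 for log2 TE. No libraries were duplicates. The fit was tested on simulated data, with planted shifts and independent normal residuals around week means. These data lacked the GC3 trend and the correlation between genes of the real libraries, so that the simulation does not cover those features. Gene positions, coding lengths and GC3 were taken from GENCODE v29 (GRCh38), promoters from RefSeq (GRCh38.p14); MTHFD2 and MTHFD1 used the principal v29 transcript. All 10 members and the called genes of the wider list are named, apart from some genes that are not reported here, plus the 5 genes most like the members' mean. The members and lists were chosen with earlier results of these data known. Alternatives are given in the closing section. Figures were drawn with matplotlib 3.10.9 in Python 3.11.15.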

Additional observations from a re-analysis of the deposited data

Results flagged for a closer look

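Among 120 groups of 4 libraries (10 genes, both assays, 6 groups), 4 held a library far from the other three by Dixon's test, where chance gives about 1 in 20, or 6. PHGDH RPFs in uninduced shEIF2B1 replicate 4 were at 9.321, against 9.71 to 9.769 in the others. PSAT1 total RNA in uninduced shEIF2B1 replicate 2 was at 11.44, against 11.07 to 11.12. ALDH1L2 RPFs in uninduced shEIF2B1 replicate 2 were at 4.915, against 4.297 to 4.393. ALDH18A1 total RNA in induced shEIF2B1 replicate 4 was at 9.024, against 9.16 to 9.183.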

How the results depend on the processing

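Counts of the 10 members called are given here, main value first, and no called response changed sign in any alternative, although estimates near 0 that were not called did, such as ALDH18A1 RPFs upon shEIF2B1 and SHMT2 log2 TE upon shEIF2B1. Without the replicate block, RPF counts went from 5 to 1 (shEIF2B1), 4 to 0 (shEIF2B4), 2 to 0 (shCTRL induction), 7 to 0 (uninduced shEIF2B1) and 2 to 0 (uninduced shEIF2B4), and the total RNA count of shCTRL induction from 2 to 0. At most 0.449% of all genes were called in any of these fits. The block changed no other count by over 1.5 times. Without the shCTRL correction, the RPF counts were 10 upon shEIF2B1 (8 higher, 2 lower) and 8 upon shEIF2B4 (7 higher, 1 lower). Of all genes, 49.4% and 23.8% were called there. The total RNA counts were 6 (all higher) and 8 (7 higher, 1 lower), with 34.4% of all genes called in each. Upon shEIF2B1 the log2 TE count was 2 (1 higher, 1 lower), with 17.1% of all genes called. With the change within each week as the value, the total RNA count upon shEIF2B4 was 5 in place of 3, with PSAT1 and ALDH1L2 added. Of all genes, 10.1% were then called in place of 5.4%. At adjusted p under 0.05, the RPF counts were 1 upon shEIF2B4 (1.24% of all genes called), 1 for shCTRL induction (2.46%) and 0 for uninduced shEIF2B4 (0.691%). With the GC3 trend removed (chosen after seeing the data), they were 1 for shCTRL induction (6.72% of all genes called), 1 for uninduced shEIF2B1 (17.2%) and 1 for uninduced shEIF2B4 (7.92%). The RPF count of uninduced shEIF2B4 was also 1 without the mean-variance trend (13.5% of all genes called), 1 with the lowest 25% of genes left out (228 genes called) and 0 with libraries centered on their median (0.153%). The count of shCTRL induction in total RNA was 1 with the lowest 25% left out (505 genes called), which removes ALDH1L2. Leaving out 1 replicate gave 4 to 5 and 0 to 4 RPF calls upon shEIF2B1 and shEIF2B4, 2 to 3 and 1 to 4 total RNA calls, 0 to 2 log2 TE calls upon shEIF2B1, 0 to 6 (RPF) and 0 to 4 (total RNA) for shCTRL induction, 5 to 7 and 0 to 4 (RPF) for uninduced shEIF2B1 and shEIF2B4, and 0 to 1 for both in total RNA. The share of all genes called changed as well. Without replicate 1 it was 31.6% in RPFs for shCTRL induction and 47.6% for uninduced shEIF2B4. Without replicate 2 it was 12.6% in log2 TE upon shEIF2B1. In RPFs upon shEIF2B1 it ran from 13.7% without replicate 4 to 24.4% without replicate 2. The 4 total RNA calls for shCTRL induction arose without replicate 1 (20.5% of all genes called) and without replicate 2 (1.39%). In total RNA upon shEIF2B4, 4 members were called without replicate 1 or 3 (4.15% and 3.11% of all genes). Without replicate 4, 1 member was called there (1.82%). Of 90 single-gene responses and differences between knockdowns, called or not, all 90 kept that status upon centering. The RPF count of uninduced shEIF2B1 went from 7 to 6 upon centering, with 56.1% of all genes called. The causes of these changes were not tested. The depth is unknown, and the number of weeks limits the precision.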
